A study of Mus musculus with 19 samples.

Results

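Left ventricles of 7 male C57BL/6 mice with a banded aorta and no heart failure were compared with those of 5 sham-operated mice of the same strain and sex. Membership followed the treatment and outcome that the labels give for each mouse, which took 12 of the 19 arrays of the series. The other 7 arrays came from banded mice with heart failure, and they entered only the shared estimate of the spread and the values set beside those of the 2 groups. All mice were wild type per the strain label, had surgery at 7 weeks of age and were killed 4 weeks later. The ventricle was freed of the atria and the right ventricle and frozen whole, so each array read a mixture of all cell types of 1 mouse. The labels mention echocardiography before death but not the criterion that separated heart failure from its absence. Of 18194 genes with a probe set of their own on the Affymetrix array, 10733 passed a filter on low signal (log2 above 4 in at least 5 of the 19 arrays) and were tested.

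A band around the aorta makes the left ventricle pump against a higher pressure. Cardiac muscle cells answer such a load by growing thicker, by returning to some genes of the fetal heart, such as those of natriuretic peptides and skeletal-type contractile proteins, and by burning less fatty acid. While the wall thickens and output is held, the state is called compensated hypertrophy. It can give way to failure, with congestion of the lung.

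The ventricles of the banded mice were heavier. The left ventricular index, the weight over tibia length given in the labels, was 5.34, 4.82, 5.03, 5.47 and 5.06 in sham mice 1 to 5. In the 7 banded mice it ran from 6.42 to 7.59 (median 7.13), and no banded mouse overlapped the sham mice. The means were 5.14 ± 0.26 (SD, n = 5) and 6.98 ± 0.437 (SD, n = 7), a difference of 1.84 or 35.7% (exact permutation test, two-sided, p = 0.00253). Banded mice with heart failure had an index of 8.97 ± 0.608 (SD, n = 7). The lung index, lung weight over tibia length, was 8.52 to 10.83 in the banded mice without heart failure, 8.2 to 9.38 in the sham mice and 17.92 to 24.62 in those with heart failure. Banded mouse 2 had the smallest ventricle (6.42) and the largest lung index (10.83) of its group.

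The arrays of these mice fell into 2 sets by the signal of the 18S ribosomal RNA control, and the sets crossed the groups. Sham mice 1 to 3 read 9.03 to 10.1 (log2) and banded mice 5 to 7 read 11 to 11.8, the high set. The other 13 arrays of the series read 5.14 to 7.62, the low set. A spiked hybridisation control, bioC, was also dimmer in banded mice 5 to 7 (8.60 to 9.20) than on the other arrays (10.2 to 11). Within the high set neither control overlapped between sham and banded mice, so there these signals and banding cannot be told apart. The actin 3' minus 5' probe difference, a sign of RNA length, was 0.943 to 1.02 in sham mice and 0.672 to 0.898 in banded mice without heart failure. These ranges do not overlap, so this measure and banding cannot be told apart, and its part in the results was not tested beyond a fit with it as a covariate. Counts of each list of gene function are given also without banded mice 5 to 7. Other settings of the fit, the array sets alone aside, are given where a count that reached 4 moved by over 1.5 times. Counts in the high set alone are largely left out, though some also moved by over 1.5 times. For named genes whose differences in the 2 sets lay over 0.5 apart, both are given, there or in the last paragraph. The low set alone, with 2 sham mice, called 343 genes, so its list counts are low and are given for 2 lists alone.

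Compensated banding changed many genes by small amounts. Of the 10733 genes, 1865 (17.4%) passed limma's test at an adjusted p under 0.05 (Benjamini-Hochberg over all genes), 1164 of them higher (10.8%) and 701 lower (6.53%) in banded mice. These P-values measure the spread between single mice. Of the calls, 1326 (71.1%) were under 1.5-fold, and the median difference was 0.46 for genes that rose and -0.36 for genes that fell (log2, as are all levels and differences below). At least 2-fold differences were found for 125 genes that rose (1.16%) and 39 that fell (0.363%). The balance of directions depended on the scaling of the arrays: 62.4% of calls were higher with the deposited values, 49.3% after quantile normalisation and 45.2% with equal array medians. In 497 genes (4.63%) all banded mice lay above all sham mice, and in 326 (3.04%) all lay below. Without banded mice 5 to 7, 1554 genes were called, of which 1190 were among the 1865. Leaving out sham mouse 2 alone reduced the count to 1185. Of the 1865 calls, 1857 had the same sign in both array sets, as did all 164 calls of at least 2-fold, which is a description, since the calls were made on the same arrays. A fit with the actin covariate called 1199 genes, 355 of them lower, and 734 of the 1199 were among the 1865. Equal array medians gave 1942, 1064 of them lower. Another fit took as a block the series of the animal ID numbers in the labels. Because whole ventricles were measured, fewer cells of a type and less RNA per cell cannot be told apart in any value below.

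**Figure D1:**
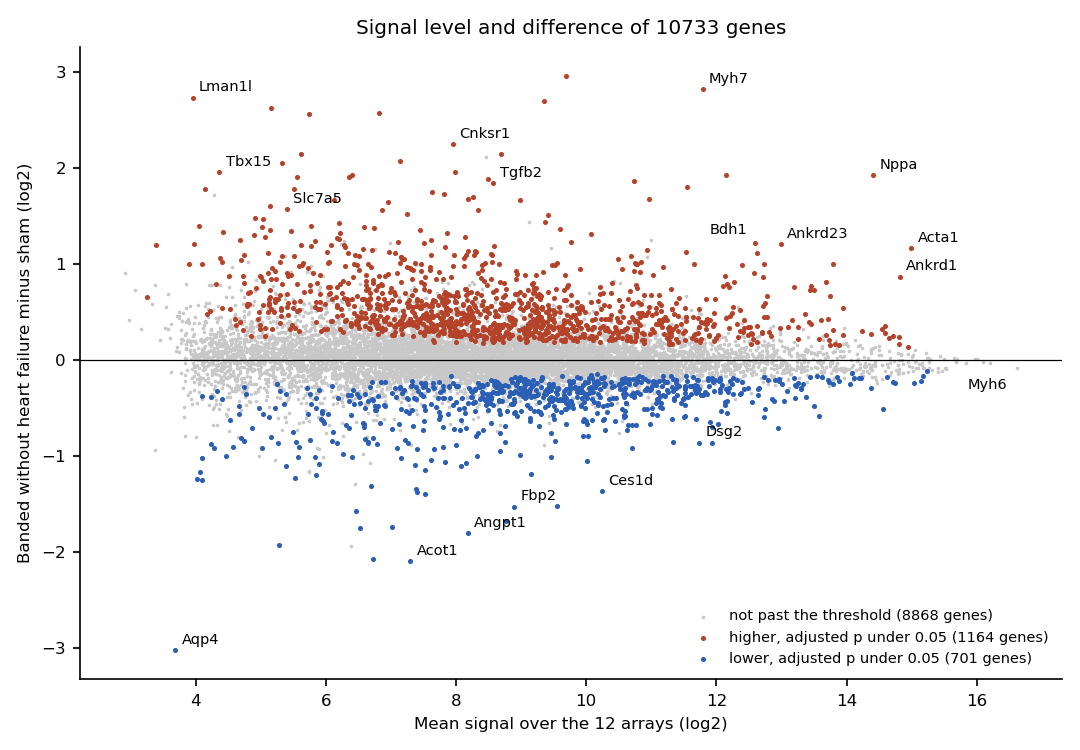
Difference of the group means, banded without heart failure minus sham (log2, y axis), against the mean signal over the 12 arrays (log2, x axis), with 1 point per gene for 10733 genes and colours for the 1164 genes that rose and the 701 that fell. Most coloured points lie close to 0, and many of the largest differences lie at low and middle signal. Myh7, Nppa, Bdh1, Ankrd23 and Acta1 are among those at higher signal.

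Each banded mouse carried the pattern, to different degrees. Over the 1164 genes that rose, the median distance from the sham mean was smallest in banded mouse 2 (0.33) and largest in banded mouse 1 (0.57), and the sham mice lay between -0.11 and 0.09. Over the 701 that fell it ran from -0.53 in banded mouse 1 to -0.28 in banded mouse 5. These genes were chosen on the same arrays, so the distances from sham are a description.

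Among 167 extracellular matrix genes, 77 rose (46.1% against 10.8% of all genes) and 2 fell (1.2% against 6.53%), the latter Efemp1 (-2.08) and Emilin2 (-0.69), 74 rose without banded mice 5 to 7, and up to 5 fell in other fits. They made up a small part of the response: 1786 of the other 10566 genes (16.9%) were also called, 1087 higher and 699 lower, and 32 of the 164 genes past 2-fold were matrix genes. The groups below leave the matrix aside. Members named with a difference alone were picked from their lists after their values were seen.

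The slow myosin gene Myh7, skeletal actin Acta1 and the skeletal binding protein gene Mybpc2 rose, while most sarcomere genes did not pass. Of 30 genes of sarcomere motors, thin filaments and giant proteins, 5 rose (16.7% against 10.8% of all genes) and 2 fell (6.67% against 6.53%), with a median difference of 0.02, the same to 2 decimals as over all genes tested. By comparison, 4 rose and 1 fell without banded mice 5 to 7, and 3 rose and 1 fell with the actin covariate. Myh7, the slow beta myosin heavy chain of the fetal ventricle, read 9.91, 10.54, 9.75, 10.77 and 9.74 in sham mice 1 to 5 and 12.36 to 13.51 (median 12.80) in the banded mice. It rose by 2.82 ± 0.24 (± SE of the fit, here and below), a 7.06-fold rise with an adjusted p of 7.43e-07, and no values overlapped. Myh6, the alpha myosin heavy chain of the adult mouse ventricle, read 16.77, 16.77, 16.69, 16.63 and 16.52 in sham and 16.52 to 16.64 (median 16.60) in banded mice and did not pass (-0.09 ± 0.05, adjusted p = 0.21). Its other probe set differed by 0.17 in the opposite direction, and how far the probe sets of these close paralogs read each other's transcript was not tested. Acta1, skeletal alpha actin, read 14.45, 14.23, 14.23, 14.66 and 14 against 15.30 to 15.66 (median 15.48). It rose by 1.16 ± 0.09 (2.24-fold, adjusted p = 6.72e-07) with no overlap. Mybpc2, the fast skeletal form of myosin-binding protein C, read 8.35, 8.39, 8.78, 9.01 and 8.11 against 9.57 to 10.47 (median 10.04). It rose by 1.51 ± 0.18 (2.85-fold, adjusted p = 2.89e-05), again with no overlap. Its cardiac counterpart Mybpc3 rose by 0.30 ± 0.05 (0.00106) and the M-band protein Myom1 by 0.25 (0.00713). The 2 members that fell were Tnnt1, slow skeletal troponin T (-0.50 ± 0.11, 0.00482), and Nebl, the Z-disc filament protein nebulette (-0.21 ± 0.07, 0.0348, and up to 0.0792 without banded mouse 1, 6 or 7 or sham mouse 2, 3, 4 or 5).

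The Z-disc anchors thin filaments and takes part in sensing stretch, and many of its genes rose. Of 32 Z-disc, costamere and stretch-response genes, 14 rose (43.8% against 10.8% of all genes), with a median of 0.28. Their number depended on the fit: 12 rose without banded mice 5 to 7, and 5 rose and 1 fell with the actin covariate, and 5 rose in the low array set alone. Ankrd23, a stretch-responsive ankyrin repeat protein that binds titin, read 12.23, 12.11, 12.25, 12.10 and 12.76 in sham mice and 13.37 to 13.69 (median 13.46) in banded mice. Sham mouse 5 was the highest of its group and still below every banded mouse. The rise was 1.20 ± 0.10 (2.3-fold, adjusted p = 9.21e-07). Ankrd1, its cardiac relative, went from 14.25, 14.44, 14.22, 14.52 and 14.12 to 14.96 to 15.32 (median 15.19), a rise of 0.87 ± 0.07 (1.82-fold, 7.28e-07) with no overlap. Synpo2l, an actin-associated protein of the Z-disc, read 12.06, 12.38, 12.21, 12.04 and 12.02 against 12.78 to 13.55 (median 13.08) and rose by 1.0 ± 0.14 (2-fold, 0.000144). Among the other members that rose were the filament cross-linkers Flnc (0.64) and Actn1 (0.62), the costamere protein Tln1 (0.59), Myot (0.64) and the stretch-linked LIM protein Fhl1 (0.55). Csrp3, the muscle LIM protein, rose least, by 0.16.

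Part of the genes of the cytoskeleton outside the sarcomere rose as well. Of 45 actin remodelling, tubulin and intermediate filament genes, 12 rose (26.7% against 10.8% of all genes), with a median of 0.25, and 10 rose without banded mice 5 to 7. Enah, which speeds actin filament growth, read 11.43, 11.53, 11.66, 12.24 and 12.21 in sham and 12.33 to 13.26 (median 13) in banded mice and rose by 0.99 ± 0.16 (1.98-fold, adjusted p = 0.000522) with no overlap. Synm, the intermediate filament protein synemin, read 6.53, 6.41, 6.92, 7.24 and 6.71 against 7.31 to 7.94 (median 7.80). It rose by 0.95 ± 0.16 (0.000522), also without overlap, and by 0.61 and 1.26 in the low and high array set. Capg, which caps actin filaments, rose by 0.84 ± 0.18 (0.00349), but its groups overlapped. Des, the muscle intermediate filament desmin, counted among the Z-disc genes, read 13.20, 13.24, 13.27, 13.68 and 13.42 against 13.90 to 14.17 (median 14.04) and rose by 0.66 ± 0.08 (4.61e-05). The nuclear lamin Lmna rose by 0.58 and beta-actin, Actb, by 0.24.

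**Figure D2:**
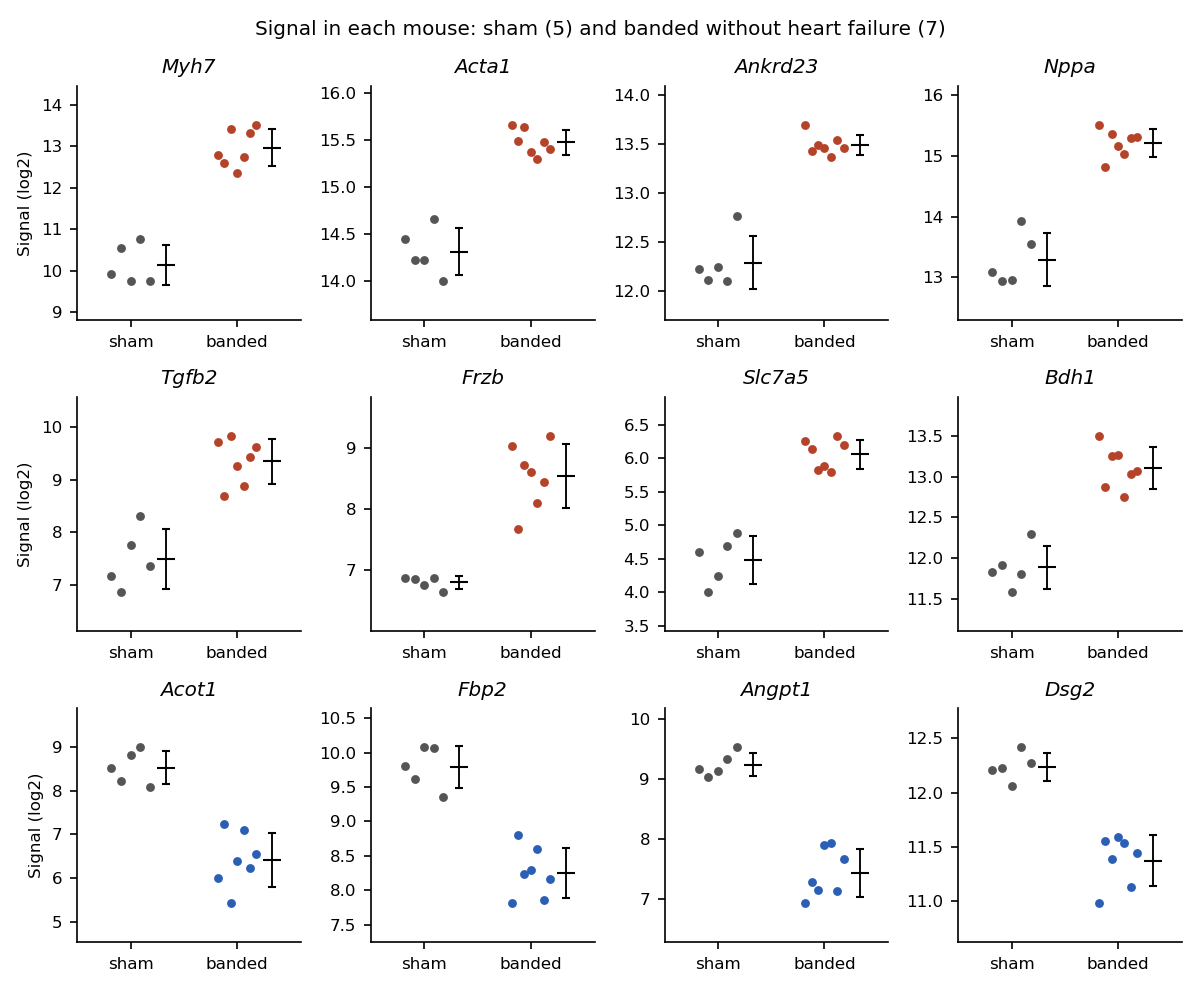
Signal (log2, y axis) of 12 genes in each of the 5 sham mice (grey) and the 7 banded mice without heart failure (red where the gene rose, blue where it fell). Horizontal marks are group means and bars are SD, each y axis has its own range and does not start at 0, and in none of the 12 genes do the groups overlap.

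Promoters of 5 contractile and stretch genes named above are shown for the letters that several of them share. That of Synpo2l, which rose more than Ankrd1, is not shown. The 250 bases before the start were taken from RefSeq on GRCm38.p6, read 5' to 3' on the gene's strand, and capitals mark matches to the MCAT motif CATTCC of TEAD factors, the CArG box of SRF or the GATA-type motif AGATAA, on either strand. All 5 genes lie on the minus strand, and for Myh7 and Ankrd23 the start shown is the 1 of 2 in the table that holds an MCAT match. The other start of Myh7 held none of these motifs and that of Ankrd23 only the GATA-type one.
Myh7, chr14:54994627-54994876: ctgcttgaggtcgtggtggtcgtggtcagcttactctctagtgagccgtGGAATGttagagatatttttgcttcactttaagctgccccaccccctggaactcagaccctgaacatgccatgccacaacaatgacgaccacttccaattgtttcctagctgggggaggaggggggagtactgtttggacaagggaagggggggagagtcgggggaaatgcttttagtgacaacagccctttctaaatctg
Acta1, chr8:123894776-123895025: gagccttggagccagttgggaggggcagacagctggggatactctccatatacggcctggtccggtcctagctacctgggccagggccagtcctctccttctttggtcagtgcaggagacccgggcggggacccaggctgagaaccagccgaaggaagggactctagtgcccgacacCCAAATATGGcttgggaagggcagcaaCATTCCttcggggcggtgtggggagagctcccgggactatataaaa
Mybpc2, chr7:44524670-44524919: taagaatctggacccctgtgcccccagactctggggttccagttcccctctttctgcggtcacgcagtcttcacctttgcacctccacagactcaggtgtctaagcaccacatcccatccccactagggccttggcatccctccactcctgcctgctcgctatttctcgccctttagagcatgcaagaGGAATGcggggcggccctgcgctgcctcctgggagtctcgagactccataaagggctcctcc
Ankrd1, chr19:36119845-36120094: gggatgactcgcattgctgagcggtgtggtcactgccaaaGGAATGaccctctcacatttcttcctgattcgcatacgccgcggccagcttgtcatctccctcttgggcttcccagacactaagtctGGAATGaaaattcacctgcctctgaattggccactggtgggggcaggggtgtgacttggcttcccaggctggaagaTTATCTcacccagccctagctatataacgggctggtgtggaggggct
Ankrd23, chr1:36535740-36535989: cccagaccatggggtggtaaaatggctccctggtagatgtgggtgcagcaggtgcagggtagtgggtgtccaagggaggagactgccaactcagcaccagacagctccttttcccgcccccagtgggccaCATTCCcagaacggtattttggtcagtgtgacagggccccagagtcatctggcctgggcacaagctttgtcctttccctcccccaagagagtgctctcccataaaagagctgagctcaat
Each of the 5 windows shown holds CATTCC or its reverse complement GGAATG, which for Myh7 and Ankrd23 follows from the choice of the start. In Acta1 the first match from the 5' end is a CArG box at position -73 from the start, and in Mybpc2 the MCAT match lies at -62. Over all 11258 promoters of the 8715 tested genes with a RefSeq entry, 10.7% held CATTCC, and 1.25% a CArG box. Among the promoters of genes past 2-fold, CATTCC was found in 22.3% of those that rose (23 of 103) and in 23.1% of those that fell (6 of 26), so the share did not go with direction. It was in 11.9% of promoters of all genes that rose and 9.89% of those that fell. In the sarcomere list 36.1% (13 of 36) held CATTCC and 19.4% (7 of 36) a CArG box, and in the Z-disc list 15% (6 of 40) held a CArG box. A match is a string of letters and shows no binding.

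Both natriuretic peptides, which the heart secretes under stretch to lower pressure and volume, rose. Nppa read 13.09, 12.93, 12.95, 13.93 and 13.54 in sham and 14.81 to 15.51 (median 15.30) in banded mice, a rise of 1.92 ± 0.15 (3.79-fold, adjusted p = 3.94e-07) with no overlap. Nppb read 13.62, 13.66, 13.51, 11.74 and 13.51 in sham mice, where mouse 4 lay far below the rest, and 13.97 to 14.51 (median 14.12) in banded mice. It rose by 1.0 ± 0.24 (2-fold, 0.00886), and the rise was 1.53 in the low set, which holds sham mouse 4, and 0.68 in the high set. Atrial transcripts varied within the groups. Sln, sarcolipin of the atrial reticulum, read 3.69, 6.01, 7.06, 10.56 and 8.82 in sham mice and 7.28 to 12.10 in banded mice. Myl7, the atrial myosin light chain, read 7.53 to 12.67 against 8.86 to 13.75. Neither passed, nor did Myl4. Of 9 atrial markers tested, Nppa rose and Kcnj3 fell. Their summed linear signal was 13230 to 34440 in sham mice and 40220 to 72180 in banded mice, but a large part of it was Nppa. The other 8 markers summed to 4530 to 18830 in sham mice and 5833 to 35420 in banded mice, ranges that overlap. With the mean of Myl4, Myl7 and Sln as a covariate, Nppa differed by 1.89 and Nppb by 1.11 (adjusted p = 1.76e-06 and 0.00371). Over the 7 mice with heart failure, Myl7 ran from 2.30 to 13.89 and Nppa from 15.39 to 15.55. The part of atrial tissue in these rises was not tested beyond the fit with this covariate.

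**Figure D3:**
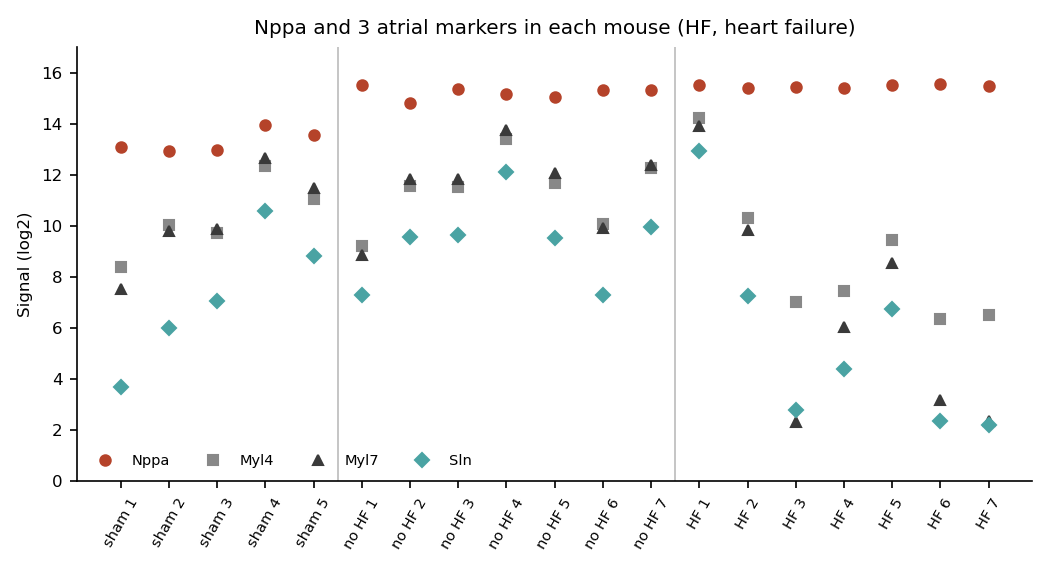
Signal (log2, y axis) of Nppa and the atrial markers Myl4, Myl7 and Sln in each of the 19 mice (x axis, by group). Nppa is above 14.8 in every banded mouse and below 14 in every sham mouse, whereas the 3 atrial markers spread widely within each group.

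Around the natriuretic peptides, genes of hormone and cyclic nucleotide signalling moved both ways. Of 53, 11 rose (20.8% against 10.8% of all genes) and 5 fell (9.43% against 6.53%). Among these genes 9 rose and 3 fell without banded mice 5 to 7, and 10 rose and 1 fell with the actin covariate, and 3 fell without banded mouse 1. Gnao1, the alpha subunit of an inhibitory G protein, read 6.90, 7.27, 7.25, 7.98 and 7.57 in sham and 8.46 to 8.90 (median 8.72) in banded mice and rose by 1.28 ± 0.15 (2.43-fold, adjusted p = 2.62e-05) without overlap. Rgs2, which shuts off Gq signalling, read 10.50, 10.55, 10.66, 10.59 and 10.80 against 8.76 to 10.48 (median 9.49). It fell, with a difference of -1.05 ± 0.24 (0.0052), in both array sets (-1.43 and -0.61 in the low and high set). Ace, the angiotensin-converting enzyme, rose by 0.98, Pde8a by 0.74, the receptor kinase Grk5 by 0.52 and the natriuretic peptide clearance receptor Npr3 by 0.52. Corin, the protease that activates natriuretic peptides, differed by -0.43, Pde4d by -0.49 and the protein kinase A subunit Prkaca by -0.25.

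Genes of growth factors and their receptors moved in both directions, also within families. Of 43 peptide growth factors and receptors, 10 rose (23.3% against 10.8% of all genes) and 4 fell (9.3% against 6.53%). The rise count was 4 without banded mice 5 to 7, and 6 without banded mouse 1, banded mouse 4, sham mouse 1 or sham mouse 2. Frzb, a secreted Wnt antagonist, read 6.87, 6.86, 6.76, 6.88 and 6.64 in sham mice, a narrow range, and 7.68 to 9.19 (median 8.60) in banded mice. It rose by 1.73 ± 0.20 (3.32-fold, adjusted p = 2.41e-05) and by 1.74 and 1.74 in the low and high array set. Sfrp2, of the same family, read 5.01, 5.11, 7.59, 4.40 and 4.14 against 5.60 to 8.25 (median 7.57). Sham mouse 3 lay among the banded mice, and the difference was 1.90 ± 0.60 (0.0353, and up to 0.0842 without banded mouse 1, 3, 4 or 7 or sham mouse 1, 2, 4 or 5). It was 3.02 and 1.07 in the low and high array set, and the high set alone did not pass (0.421). The Wnt antagonists Wif1 (-1.08, adjusted p = 0.148) and Sfrp1 (0.79, 0.0666) did not pass, and the ligand Wnt5a differed by -0.41. Ptn, the heparin-binding growth factor pleiotrophin, differed by 1.37 ± 0.43 (0.0357, and up to 0.0727 without banded mouse 1, 4 or 7 or sham mouse 1, 2, 3 or 5). Fgf18 and Hbegf rose by 1.01 and 0.75, and Fgf16 and Fgf1 differed by -1.02 and -0.38.

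All 3 TGF-beta ligands rose. Tgfb2 read 7.18, 6.87, 7.77, 8.32 and 7.36 in sham and 8.68 to 9.82 (median 9.43) in banded mice, a rise of 1.84 ± 0.23 (3.58-fold, adjusted p = 4.61e-05) with no overlap, and its 3 other probe sets had the same sign. Tgfb3 read 7.96, 7.64, 8.13, 8.07 and 7.67 against 8.41 to 9.52 (median 9.14) and rose by 1.10 ± 0.21 (2.15-fold, 0.00146). Tgfb1 rose by 0.72. Fstl3, which binds and blocks activins, read 6.40, 6.80, 6.79, 6.80 and 6.64 against 7.0 to 8.0 (median 7.61) and rose by 0.96 ± 0.21 (0.00392), with banded mouse 2 the lowest of its group. Of 42 TGF-beta, activin and BMP genes, 10 rose (23.8% against 10.8% of all genes), or 8 without banded mice 5 to 7, among them the receptor Tgfbr1 (0.42) and the repressors Ski (0.46) and Tgif1 (0.41).

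Genes of the kinase and phosphatase cascades of hypertrophic growth were called about as often as all genes. Of 73 calcineurin, CaM kinase, MAP kinase and AKT genes, 8 rose and 4 fell, 16.4% against 17.4% over all genes, with a median of 0.02. Their split varied: 5 rose and 6 fell without banded mice 5 to 7, and 5 rose and 2 fell with the actin covariate. Rcan1, an inhibitor of calcineurin whose own gene calcineurin activates, read 11.32, 10.95, 10.84, 10.08 and 11.14 in sham and 11.19 to 12.45 (median 12.04) in banded mice. It rose by 1.13 ± 0.22 (2.18-fold, adjusted p = 0.00164), and the groups overlapped at their edges. Spry1, a brake on receptor tyrosine kinase signalling, rose by 0.80 ± 0.16 (0.00214), by 0.35 and 1.13 in the low and high array set. Dusp18, a dual-specificity phosphatase, fell, with a difference of -0.76 ± 0.18 (0.00711). The p38 kinase Mapk14 differed by -0.39 and protein kinase C epsilon, Prkce, by -0.40.

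Transcription factor genes rose in a number that depended on the mice included. Of 76 cardiac and growth-response factors, 14 rose (18.4% against 10.8% of all genes) and 1 fell (1.32% against 6.53%), but the rises numbered 5 without banded mice 5 to 7 and 8 with the actin covariate. They numbered 9 without banded mouse 1, banded mouse 6 or sham mouse 1, 3 or 4, and 8 without sham mouse 2. Meox1, a homeobox factor, read 7.43, 6.82, 7.31, 6.89 and 7.58 in sham and 8.16 to 9.56 (median 8.76) in banded mice. It rose by 1.67 ± 0.34 (3.18-fold, adjusted p = 0.0028) without overlap. Vgll3, a cofactor of TEAD factors, read 7.65, 7.09, 7.45, 6.25 and 7.0 against 7.45 to 8.81 (median 8.51) and rose by 1.31 ± 0.28 (0.00386). Myc, the growth-promoting factor, read 4.12, 5.23, 5.09, 5.68 and 5.30 against 5.46 to 6.55 (median 6.41) and rose by 1.18 ± 0.26 (0.00391). Banded mouse 2 was the lowest banded value for Myc, and the rise was 0.67 and 1.59 in the low and high array set. Runx1 (1.01), Sox9 (1.0), Mef2c (0.58) and Srf (0.40) also rose. The member that fell was Hopx, a homeodomain protein that restrains SRF, with a difference of -0.51 ± 0.12 (0.00537) and no overlap.

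Many genes of fatty acid oxidation, the main fuel path of the adult heart, fell. Of 51 genes of fatty acid uptake, activation and beta-oxidation, 16 fell, 31.4% against 6.53% of all genes, and 1 rose, with a median of -0.21. The count of falls was also 16 without banded mice 5 to 7, 15 to 19 when single mice were left out, and 26 with the ID series as a block. Acot1, a cytosolic enzyme that splits acyl-CoA, read 8.52, 8.22, 8.81, 8.99 and 8.08 in sham and 5.43 to 7.23 (median 6.39) in banded mice. It was 4.29-fold lower (difference -2.10 ± 0.25, adjusted p = 2.7e-05) with no overlap, and its close paralogs may share its probes. Slc25a20, which carries acylcarnitines into mitochondria, read 12.51, 12.26, 12.30, 12.09 and 12.26 against 11.48 to 11.81 (median 11.61). Its difference was -0.65 ± 0.08 (2.41e-05). Acaa2, the last enzyme of the beta-oxidation turn, read 13.85, 13.85, 13.83, 14.09 and 13.94 against 13.05 to 13.54 (median 13.40) and differed by -0.59 ± 0.09 (0.000308). Neither gene's groups overlapped. The other 13 falls ran from -0.53 for Ehhadh to -0.23 for Acadvl and included Cpt2 (-0.36), Decr1 (-0.43), Ech1 (-0.51) and the carnitine transporter Slc22a5 (-0.40). Acsl5, an acyl-CoA synthetase, was the member that rose (0.33 ± 0.08, 0.00895). Cd36, the fatty acid translocase, did not pass (-0.09, adjusted p = 0.447).

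Some genes that break down branched-chain amino acids fell as well, while a ketone body enzyme rose. Of 46 citric acid cycle, branched-chain amino acid and ketone genes, 1 rose (2.17% against 10.8% of all genes) and 13 fell (28.3% against 6.53%), with a median of -0.15. The falls numbered 8 without banded mice 5 to 7, 20 with equal array medians and 22 with the ID series as a block. Of the 13, 9 were among 20 branched-chain amino acid genes and 3 among 15 citric acid cycle enzymes, a split made after the values were seen. Ppm1k, the phosphatase that switches on branched-chain ketoacid dehydrogenase, read 10.39, 10.62, 10.49, 11.09 and 10.57 in sham and 9.65 to 10.35 (median 10.16) in banded mice and differed by -0.55 ± 0.14 (0.00936) without overlap, or by -0.31 (0.135) with the mean of its probe sets. Acadsb, a dehydrogenase of short branched acyl-CoA, differed by -0.45 ± 0.11 (0.00711). Mmut (-0.42), Mccc1 (-0.34), Mccc2 (-0.40) and Ivd (-0.31) fell, as did citrate synthase, Cs (-0.24). Bdh1, the mitochondrial enzyme that interconverts the ketone bodies, read 11.83, 11.92, 11.58, 11.80 and 12.30 against 12.75 to 13.50 (median 13.07). It rose by 1.22 ± 0.15 (2.33-fold, adjusted p = 2.75e-05) with no overlap, by 1.17 and 1.17 in the low and high array set.

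Respiratory chain genes showed shallow falls that depended on which mice were included. Of 72 respiratory chain and ATP synthase subunit genes, 10 fell (13.9% against 6.53% of all genes), with differences from -0.28 (Uqcr10 of complex III) to -0.14 (Ndufb11 of complex I) and a list median of -0.10. Their number was 16 without banded mice 5 to 7 and 3, 5, 4 or 6 without sham mouse 1, 2, 3 or 5, and 5 or 6 without banded mouse 1 or 3. It was 2 with the actin covariate and 27 with equal array medians. Uqcr10 read 13.48, 13.42, 13.50, 13.18 and 13.31 in sham and 12.98 to 13.24 (median 13.06) in banded mice (0.0183, and up to 0.0531 without sham mouse 1 or 3). Cox8b of complex IV differed by -0.24 ± 0.07 (0.0281, and up to 0.0902 without banded mouse 1 or sham mouse 1 or 5) and Atp5e of ATP synthase by -0.22 ± 0.06 (0.017, and up to 0.0557 without sham mouse 1 or 3), and in all 3 genes the groups overlapped.

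In the wider set of mitochondrial genes, those of the mitochondrial ribosome made up most of the falls. Of 110 genes of mitochondrial translation, import, dynamics and regulation, 3 rose (2.73% against 10.8% of all genes) and 16 fell (14.5% against 6.53%). The falls numbered 14 without banded mice 5 to 7, 9 without sham mouse 1, 25 without sham mouse 4, 30 with equal array medians and 1 in the low array set alone, and with the actin covariate 11 fell and no gene rose. Mitochondrial ribosomal proteins gave 12 of the 16, from 60 tested. Slc25a34, a mitochondrial carrier, read 10.92, 10.67, 10.82, 11.30 and 11.03 in sham and 10.47 to 10.66 (median 10.52) in banded mice and differed by -0.38 ± 0.10 (0.0156) without overlap. Mrps11 differed by -0.35 ± 0.10 (0.0249, and up to 0.0658 without banded mouse 1 or 3 or sham mouse 1, 2 or 3). Lonp1, the protease of the mitochondrial matrix, rose by 0.32 ± 0.07 (0.0041) without overlap. Ppard, a nuclear receptor for fatty acids, rose by 0.63 ± 0.18 (0.0228, and up to 0.0742 without sham mouse 1, 2 or 3) and the import channel Tomm40 by 0.32 ± 0.10 (0.0442, and up to 0.147 without banded mouse 1, 3, 4, 6 or 7 or sham mouse 1, 2 or 3). For both, the low array set gave 0.06 and the high set 1.13 and 0.50.

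Glucose genes were called about as often as all genes. Of 47 genes of glucose uptake, glycolysis, glycogen and pyruvate, 6 rose (12.8% against 10.8% of all genes) and 2 fell (4.26% against 6.53%), 17% in all against 17.4%. The rises numbered 3 without banded mice 5 to 7, sham mouse 1 or sham mouse 2. The balance of directions changed with the fit: 1 rose and 3 fell with the actin covariate, 4 and 5 with equal array medians, and 7 and 8 with the ID series as a block. Pfkp, the platelet form of phosphofructokinase, read 9.98, 9.79, 10.07, 9.72 and 10.12 in sham and 10.21 to 11.18 (median 10.81) in banded mice and rose by 0.80 ± 0.14 (1.74-fold, adjusted p = 0.00101) without overlap. Hk1, the hexokinase of the fetal heart, read 11.33, 11.22, 11.31, 11.48 and 11.55 against 11.60 to 12.09 (median 11.82) and rose by 0.45 ± 0.08 (0.000871). The falls were Slc2a12, a glucose transporter (-0.57 ± 0.12, 0.00257), and Ldhd, which oxidises D-lactate (-0.41 ± 0.14, 0.0433, and up to 0.118 without banded mouse 1, 3, 5, 6 or 7 or sham mouse 1, 4 or 5). Fbp2, the muscle fructose bisphosphatase of gluconeogenesis, lay outside the list. It read 9.80, 9.62, 10.08, 10.06 and 9.36 against 7.81 to 8.80 (median 8.23) and was 2.89-fold lower (-1.53 ± 0.17, 1.1e-05) with no overlap.

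Of 48 genes of triglyceride, cholesterol and phospholipid metabolism, 7 rose (14.6% against 10.8% of all genes) and 5 fell (10.4% against 6.53%). Falls numbered 3 without sham mouse 2 or 3, while 5 rose and 5 fell without banded mice 5 to 7, and 3 rose and 8 fell with the actin covariate. Ces1d, a carboxylesterase with close paralogs that may share its probes, read 11.11, 11.39, 11.26, 10.81 and 10.61 in sham and 8.73 to 10.36 (median 9.74) in banded mice and was 2.59-fold lower (-1.37 ± 0.27, 0.00224). Pla2g5, a secreted phospholipase A2, read 9.18, 9.05, 8.68, 8.77 and 8.83 against 7.77 to 8.04 (median 7.85). Its difference was -1.01 ± 0.11 (1.03e-05) with no overlap. Apod, apolipoprotein D, rose by 1.09 ± 0.28 (0.013) without overlap. Plin5, which coats lipid droplets next to mitochondria, differed by -0.53 and the sterol regulator Srebf2 by 0.78.

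Several genes that feed protein and nucleotide synthesis rose. Of 53 creatine, nucleotide, amino acid and one-carbon genes, 9 rose (17% against 10.8% of all genes) and 5 fell (9.43% against 6.53%), and 8 rose and 2 fell without banded mice 5 to 7. Nmrk2, a muscle kinase that makes NAD from nicotinamide riboside, read 7.84, 7.26, 7.56, 6.63 and 7.66 in sham and 8.26 to 9.94 (median 9.38) in banded mice. It rose by 1.88 ± 0.29 (3.67-fold, adjusted p = 0.000324) with no overlap. Slc7a5, a carrier of large neutral amino acids such as leucine, read 4.60, 4.0, 4.25, 4.69 and 4.89 against 5.80 to 6.33 (median 6.13). It rose by 1.57 ± 0.14 (2.97-fold, 9.21e-07). Mthfd2, a mitochondrial one-carbon enzyme of growing cells, read 6.37, 6.23, 6.77, 6.37 and 6.10 against 7.53 to 8.19 (median 7.86) and rose by 1.52 ± 0.19 (2.87-fold, 3.27e-05). The groups of all 3 were apart. Asns rose by 1.12, Aldh18a1 of proline synthesis by 0.63 and the creatine transporter Slc6a8 by 0.37. Phgdh of serine synthesis, under log2 4 on at least 1 of the 12 arrays, rose by 0.79. Psat1 (0.24), Psph (-0.06), Slc3a2 (0.16) and Slc38a2 (0.20) of the same list did not pass. The factor Atf4, which drives several genes of this list when amino acids are short, rose by 0.40, and its part here was not tested. The alanine aminotransferases Gpt and Gpt2 differed by -0.73 and -0.57, and Aldh1l2, another mitochondrial one-carbon enzyme, by -1.01.

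Part of the genes of the translation machinery rose, by small steps. Of 74 translation factor, aminoacyl-tRNA synthetase and ribosome biogenesis genes, 20 rose (27% against 10.8% of all genes) and 3 fell (4.05% against 6.53%). The rises numbered 10 with the actin covariate, 11 with equal array medians, 13 after quantile normalisation or without banded mice 5 to 7, 11, 12 and 13 without sham mouse 1, 2 and 3, and 13 without banded mouse 3. By a split made after the values were seen, synthetases gave 9 rises and 2 falls among 18. Of 40 cytosolic ribosomal proteins limma called 0 (1 at an unadjusted p under 0.05), with a median of -0.03, but 2 fell without banded mice 5 to 7 and 1 fell with equal array medians. Rrp12, a factor of ribosome assembly, read 7.82, 7.62, 7.58, 7.65 and 7.98 in sham and 8.27 to 8.72 (median 8.48) in banded mice and rose by 0.73 ± 0.10 (1.66-fold, adjusted p = 5.56e-05). Aars, the alanyl-tRNA synthetase, read 9.40, 9.52, 9.50, 9.75 and 9.80 against 9.92 to 10.37 (median 10.12) and rose by 0.52 ± 0.09 (0.000503). Neither overlapped. Vars, the valyl-tRNA synthetase, rose by 0.44 ± 0.14 (0.0354, and up to 0.105 without banded mouse 1, 4, 5 or 7 or sham mouse 1, 2 or 3), by 0.04 and 0.72 in the low and high array set. The falls were Farsb (-0.35 ± 0.10, 0.0257, and up to 0.084 without banded mouse 3 or sham mouse 1 or 2) and Kars (-0.15 ± 0.05, 0.0412, and up to 0.0934 without any 1 mouse other than banded mouse 2), both synthetases, and the initiation factor subunit Eif3m (-0.22 ± 0.06, 0.0107).

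Heat shock genes made up a large part of the rises among genes of protein quality control. Of 80 proteasome, ubiquitin ligase, heat shock and autophagy genes, 17 rose (21.2% against 10.8% of all genes) and 1 fell (1.25% against 6.53%). The rises numbered 11 without sham mouse 1 or 2, and 13 rose and 4 fell without banded mice 5 to 7, and 6 rose and 1 fell with the actin covariate. By a split made after the values were seen, 8 of 19 heat shock proteins and co-chaperones rose, but of 36 proteasome subunits 3 rose and 1 fell. Uchl1, a ubiquitin hydrolase, read 6.82, 6.65, 6.69, 7.29 and 7.18 in sham and 7.34 to 8.53 (median 7.69) in banded mice and rose by 0.93 ± 0.20 (1.9-fold, adjusted p = 0.00334). Hsp90aa1, a cytosolic chaperone, read 12.12, 12.17, 12.05, 11.42 and 12.06 against 12.22 to 12.72 (median 12.40), with sham mouse 4 below the others, and rose by 0.48 ± 0.12 (0.00876). Hspb8, a small heat shock protein that works with Bag3, rose by 0.47 ± 0.08 (0.000962), but 1 of its 2 other probe sets differed by -0.02. Bag3 itself rose by 0.37, Hspb6 by 0.35 and Hspb1 by 0.41. The member that fell was Psme1, an activator of the immunoproteasome, which read 12.36, 12.47, 12.42, 12.25 and 12.41 against 11.81 to 12.16 (median 11.92) (-0.44 ± 0.08, 0.000848).

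Of 64 genes of reticulum folding, the unfolded protein response and secretion, 7 rose (10.9% against 10.8% of all genes) and 7 fell (10.9% against 6.53%). Rises numbered 3 without sham mouse 2 and falls 11 without sham mouse 4. In other fits 8 rose and 8 fell without banded mice 5 to 7, and 5 rose and 2 fell with the actin covariate. The falls were mostly chaperones, with Hspa5 at -0.39, Dnajc3 at -0.43 and Canx at -0.36, and included the factor Xbp1 at -0.35. Other regulators of the unfolded protein response rose, Ern1 by 0.29, Atf6b by 0.27 and Atf4 by 0.40. Manf, a secreted stress protein of the reticulum, read 11.22, 11.43, 11.49, 10.20 and 11.49 in sham, with mouse 4 lowest, and 10.34 to 10.58 (median 10.53) in banded mice. Its difference was -0.68 ± 0.18 (0.0138), and -0.34 and -0.92 in the low and high array set. Sdf2l1 differed by -0.84 ± 0.26 (0.0335, and up to 0.1 without banded mouse 1, 2, 3 or 4 or sham mouse 1, 2 or 3). Ppp1r15a, which restores translation after stress, rose by 0.66 ± 0.17 (0.0144, and 0.0534 without sham mouse 2).

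Among 70 antioxidant, detoxification, heme and iron genes, 8 rose (11.4% against 10.8% of all genes) and 12 fell (17.1% against 6.53%). Falls numbered 6 without sham mouse 2, while 6 rose and 6 fell without banded mice 5 to 7, and 5 rose and 5 fell with the actin covariate. Cygb, cytoglobin of fibroblasts and other stromal cells, read 9.05, 8.84, 9.42, 10.14 and 9.11 in sham and 9.88 to 11.25 (median 10.70) in banded mice and rose by 1.31 ± 0.23 (2.48-fold, adjusted p = 0.000927), by 0.76 and 1.83 in the low and high array set. Gpx3, the secreted glutathione peroxidase, rose by 0.91 ± 0.21 (0.00672), by 0.45 and 1.14 in these sets. Gstt1, a glutathione transferase, read 8.75, 8.48, 8.69, 8.61 and 8.33 against 7.52 to 8.14 (median 7.90) and fell, with a difference of -0.71 ± 0.11 (0.000346) and no overlap. Nox4, an oxidase that makes hydrogen peroxide, was under log2 4 on at least 1 of the 12 arrays, and its difference of 2.05 is given without a fold.

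**Figure D4:**
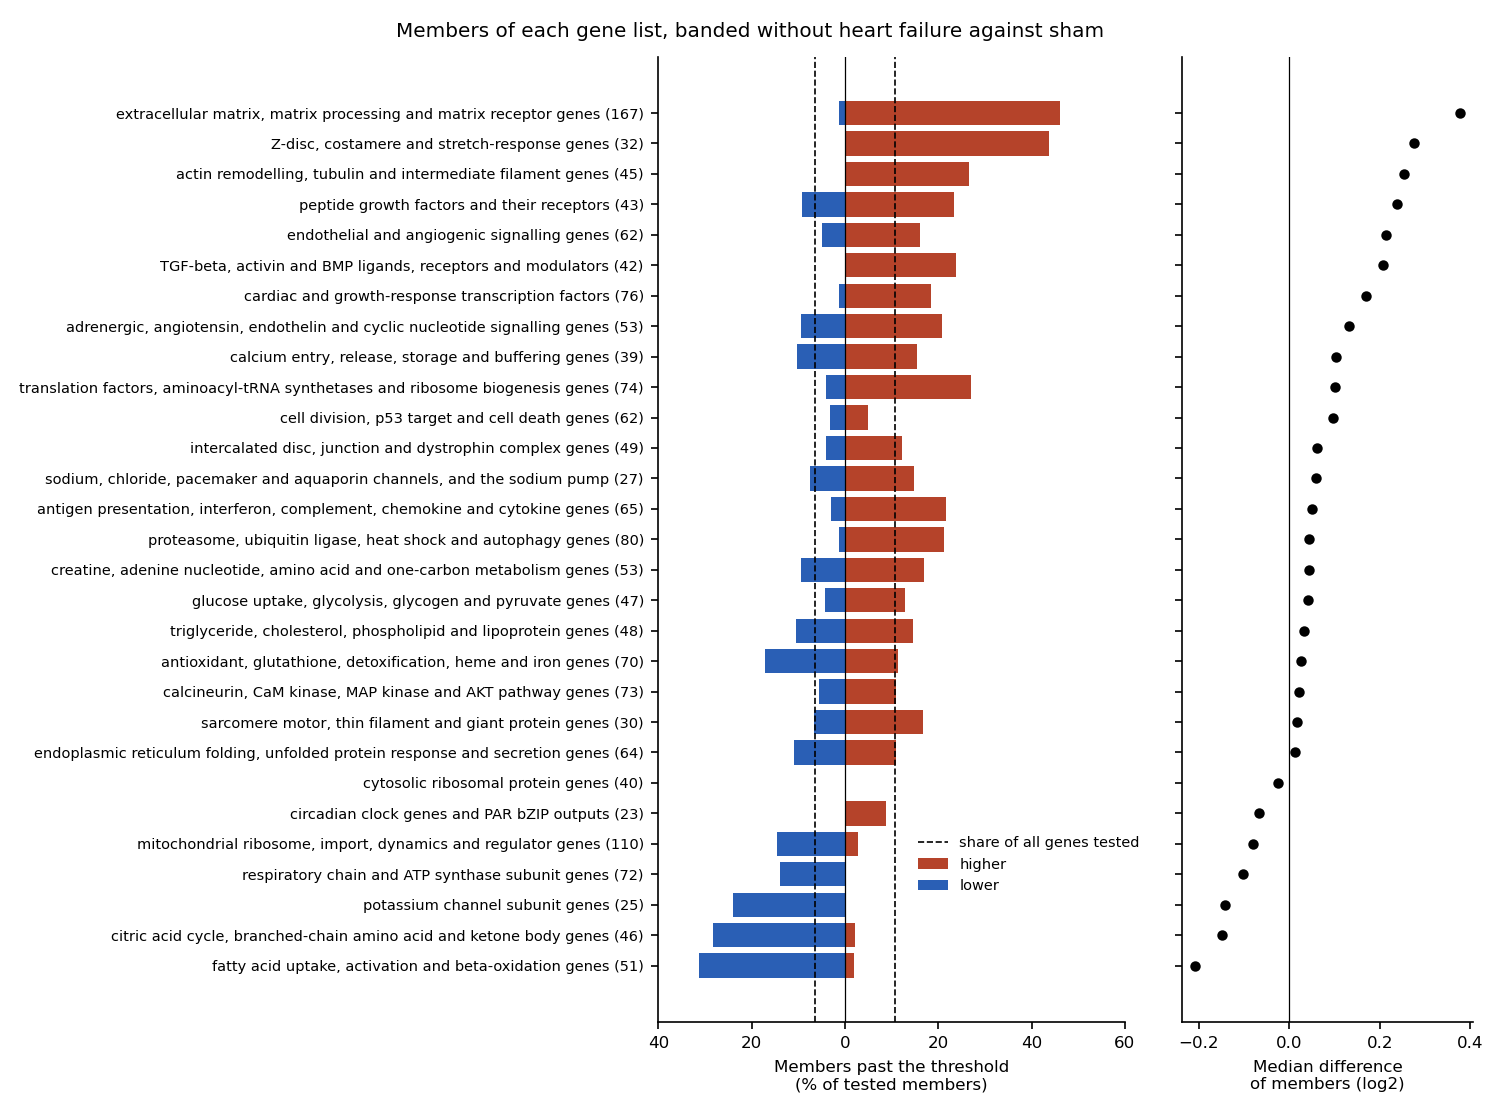
For 29 lists of genes (rows, with the number tested), the left panel gives the percentage of members that rose (red, to the right) or fell (blue, to the left), with dashed lines at the 10.8% and 6.53% of all genes, and the right panel gives the median difference of the members (log2). Matrix, Z-disc and cytoskeleton genes stand at the top with medians of 0.38, 0.28 and 0.25, and fatty acid genes at the bottom with -0.21.

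Several potassium channel genes fell. Of 25 subunits, 6 fell (24% against 6.53% of all genes), or 4 without banded mice 5 to 7 and 3 without sham mouse 2, and with the actin covariate limma called 0 (3 fell and 2 rose at an unadjusted p under 0.05). Kcnj3 and Kcnj5 form the acetylcholine-gated channel. Kcnj3 read 10.25, 10.40, 10.44, 10.85 and 10.49 in sham and 9.06 to 10.19 (median 9.59) in banded mice and differed by -0.79 ± 0.19 (0.00896) without overlap. It is also on the atrial marker list, where Myl4, Myl7 and Sln differed by 1.07, 1.24 and 2.11 and Stard10 by -0.33, none of which passed. Kcnj5 differed by -0.61 ± 0.18 (0.0256, and up to 0.0635 without banded mouse 1 or 6 or sham mouse 2 or 3). Kcnv2, a silent modifier subunit, read 5.37, 5.33, 4.34, 5.73 and 5.41 against 4.23 to 4.71 (median 4.34) and differed by -0.85 ± 0.23 (0.0148), with sham mouse 3 among the banded mice, and by -1.24 and -0.55 in the low and high array set. Sham mouse 3 and banded mice 2, 3, 6 and 7 all read the same 4.34. Kcnd2, of the transient outward current, differed by -0.54.

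Among 27 sodium, chloride and water channel and sodium pump genes, 4 rose (14.8% against 10.8% of all genes) and 2 fell (7.41% against 6.53%), shares close to those of all genes. In other fits 3 rose and 2 fell without banded mice 5 to 7, 5 rose and 4 fell after quantile normalisation, and 5 rose and 4 fell with the ID series as a block. Aqp8, a water channel, read 6.58, 6.27, 5.57, 5.32 and 6.23 in sham and 7.24 to 7.94 (median 7.75) in banded mice and rose by 1.64 ± 0.29 (3.12-fold, adjusted p = 0.000887). Fxyd6, a regulator of the sodium pump, read 7.61, 7.54, 7.56, 7.87 and 7.70 against 8.36 to 9.19 (median 8.86) and rose by 1.12 ± 0.14 (2.17-fold, 4.61e-05). Both were without overlap. Clcn3, a chloride-proton exchanger, differed by -0.47 ± 0.14 (0.0248, and up to 0.0797 without sham mouse 1, 2 or 3). The other fall was Aqp4, described with the genes under log2 4 in 1 group.

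Calcium genes moved both ways, among channel subunits and among genes of the calcium store alike. Of 39, 6 rose (15.4% against 10.8% of all genes) and 4 fell (10.3% against 6.53%). In comparison 6 rose and 2 fell without banded mice 5 to 7, and 3 rose and 2 fell with the actin covariate. Cacnb1, a beta subunit of voltage-gated calcium channels best known from skeletal muscle, read 5.17, 4.93, 4.63, 5.08 and 5.29 in sham and 5.65 to 6.56 (median 5.95) in banded mice and rose by 0.98 ± 0.13 (1.97-fold, adjusted p = 8.21e-05) without overlap. Banded mice 1, 2, 4, 6 and 7 all read the same 5.95, which narrows the spread of their group. The main cardiac beta subunit Cacnb2 differed by -0.45. Trdn, triadin, which ties the release channel to the calcium store, read 13.24, 13.26, 13.16, 12.81 and 12.93 against 12.19 to 12.74 (median 12.46). It fell, with a difference of -0.60 ± 0.09 (0.000337), no overlap and the same sign in its 5 other probe sets. Atp2a2, the cardiac calcium pump SERCA2, did not pass (-0.03 ± 0.05, adjusted p = 0.747). Its 4 other probe sets differed by -1.27 to -0.04, and with the mean of its probe sets the difference was -0.36 (0.045). Atp2a3, another SERCA gene, rose by 0.55 ± 0.13 (0.00741), and the dyad protein Jph2 by 0.35.

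Of 49 intercalated disc, junction and dystrophin complex genes, 6 rose (12.2% against 10.8% of all genes) and 2 fell (4.08% against 6.53%), shares close to those of all genes. Here 5 rose and 3 fell without banded mice 5 to 7, and 5 rose and 5 fell with equal array medians. Dsg2, the desmosomal cadherin of heart muscle, read 12.21, 12.23, 12.06, 12.42 and 12.27 in sham and 10.98 to 11.59 (median 11.44) in banded mice. It was 1.82-fold lower (-0.86 ± 0.10, adjusted p = 1.73e-05) with no overlap, and its 5 other probe sets had the same sign. With the mean of the 6 probe sets the difference was -0.46 and did not pass (0.225). Its cytoplasmic partner Jup, plakoglobin, went the other way (0.78 ± 0.17, 0.00392), although by 0.16 and 1.25 in the low and high array set. Gja3, a connexin, differed by -0.49 ± 0.12 (0.00944), and Mcam, an adhesion molecule of vessel walls, rose by 0.67 ± 0.12 (0.00121). Both had groups apart.

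Some vessel genes rose, and the ligand Angpt1 fell. Of 62 endothelial and angiogenic signalling genes, 10 rose (16.1% against 10.8% of all genes) and 3 fell (4.84% against 6.53%). Within this list 9 rose and 2 fell without banded mice 5 to 7, and 6 rose and 1 fell with the actin covariate. Angpt1, the ligand that stabilises vessels through the receptor Tie2, read 9.16, 9.04, 9.13, 9.33 and 9.53 in sham and 6.93 to 7.93 (median 7.28) in banded mice. It was 3.5-fold lower (-1.81 ± 0.18, adjusted p = 3.49e-06), with no overlap, the same sign in its other probe set and -2.11 and -1.53 in the low and high array set. Tie1, a co-receptor of that system, rose by 0.52 ± 0.13 (0.011). Sema3f, a guidance ligand, rose by 1.11 ± 0.30 (0.0175), but 1 of its 2 other probe sets differed by -0.03, and the low and high array set gave 0.53 and 1.39. Ramp1 and Tfpi, a receptor partner of the peptide CGRP and an inhibitor of coagulation, differed by -0.92 ± 0.29 (0.0336, and up to 0.0842 without banded mouse 1, 3 or 6 or sham mouse 1, 2 or 3) and -0.44 ± 0.10 (0.00725), while Ramp3 rose by 0.70.

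Some interferon-linked immune genes rose, while no leukocyte marker was called. Of 65 antigen presentation, interferon, complement, chemokine and cytokine genes, 14 rose (21.5% against 10.8% of all genes) and 2 fell (3.08% against 6.53%), and the same numbers without banded mice 5 to 7. The rises numbered 6 without banded mouse 3 or sham mouse 1 or 2, 8 without banded mouse 1 or 4 or sham mouse 5, 7 with the atrial or the actin covariate, and 8 with equal array medians, and 4 fell after quantile normalisation. By a split made after the values were seen, interferon-response genes gave 7 rises among 21, among them Irf8 (0.69), Stat2 (0.65) and Ifit1 to Ifit3 (0.49, 0.57 and 0.56). Tnfrsf12a, the receptor of the cytokine TWEAK, read 10.38, 10.43, 10.31, 9.54 and 10.69 in sham and 11.20 to 11.78 (median 11.34) in banded mice and rose by 1.14 ± 0.22 (2.2-fold, adjusted p = 0.00159). Cx3cl1, the chemokine fractalkine, read 6.71, 6.66, 6.74, 7.15 and 6.66 against 7.50 to 8.10 (median 7.77) and rose by 1.0 ± 0.17 (0.000712). Il15 read 9.68, 9.95, 9.83, 10.40 and 10.39 against 8.78 to 9.34 (median 9.09) and fell, with a difference of -1.01 ± 0.17 (0.000569). The groups of these 3 genes did not overlap. Cd59a, an inhibitor of complement, differed by -0.35 ± 0.07 (0.00164).

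Few genes of division, p53 targets and cell death changed. Of 62, 3 rose and 2 fell, 8.06% against 17.4% of all genes, and 2 rose and no gene fell without banded mice 5 to 7. Bcl2, which holds back apoptosis, read 7.90, 7.95, 7.33, 7.12 and 7.31 in sham and 8.24 to 9.23 (median 8.73) in banded mice and rose by 1.13 ± 0.18 (2.19-fold, adjusted p = 0.00032) without overlap, and its 2 other probe sets had the same sign. Bak1, which promotes apoptosis, rose by 0.51 ± 0.16 (0.0373, and up to 0.123 without banded mouse 1 or 4 or sham mouse 1, 2 or 3). Cdk2 and Ccng1 differed by -0.43 ± 0.11 (0.0109) and -0.18 ± 0.05 (0.0224, and up to 0.0589 without sham mouse 1 or 5). Of 23 clock genes, 2 rose (8.7% against 10.8% of all genes), or 1 without banded mice 5 to 7. Timeless read 8.14, 8.07, 8.03, 8.18 and 7.90 against 8.46 to 8.88 (median 8.68) and rose by 0.61 ± 0.09 (0.000235) with no overlap. Nr1d1, the repressor REV-ERB alpha, spread widely (7.44, 7.54, 7.85, 8.19 and 8.31 against 6.97 to 9.83 (median 9.05), 1.0 ± 0.34, 0.0471, and up to 0.117 without banded mouse 1, 3, 4, 5, 6 or 7 or sham mouse 1, 2 or 3), by 0.26 and 1.74 in the low and high array set. The hour of death is not given in the labels.

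Several of the largest changes lay outside the lists of gene function. Of the 164 genes past 2-fold, 88 were in neither the matrix list nor another function list, 59 of them higher and 29 lower. Cell type marker lists were left out of this count. Cnksr1, a scaffold of the Ras and Raf pathway, read 6.66, 6.17, 6.23, 7.33 and 6.83 in sham and 8.71 to 9.07 (median 8.87) in banded mice. It rose by 2.24 ± 0.21 (4.73-fold, adjusted p = 2.81e-06), and the banded range was narrow and apart. Gm30873, a predicted gene, rose by 1.92 ± 0.30 (3.79-fold, 0.000314) and Itgbl1, a secreted integrin-like protein, by 1.67 ± 0.24 (3.17-fold, 0.000144), both without overlap. Fibin, a secreted protein, read 6.24, 6.36, 5.84, 7.90 and 6.70 against 7.32 to 9.41 (median 8.52) and rose by 1.74 ± 0.38 (3.35-fold, 0.00439). Pamr1, linked to muscle regeneration, read 5.33, 4.93, 6.27, 4.91 and 4.39 against 5.51 to 7.75 (median 7.13) and rose by 1.66 ± 0.37 (3.16-fold, 0.00469). Fibin and Pamr1 had overlapping groups, and Pamr1 rose by 2.2 and 1.29 in the low and high array set.

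The largest falls outside the lists had few common features. Cenpf, a kinetochore protein of dividing cells, read 7.55, 7.81, 7.17, 7.63 and 7.60 in sham and 5.0 to 6.56 (median 5.90) in banded mice and was 3.37-fold lower (-1.75 ± 0.24, adjusted p = 0.000108). Lgals4, galectin 4, read 8.15, 8.20, 8.15, 8.26 and 7.44 against 5.08 to 6.95 (median 6.35), with sham mouse 5 lowest of its group (-1.75 ± 0.26, 0.000203). Gpr22, an orphan receptor of heart and brain, read 9.51, 10.11, 9.78, 9.51 and 9.86 against 7.14 to 8.94 (median 8.19) (-1.68 ± 0.27, 0.000447). These 3 had groups apart. Ano10, a member of the anoctamin family, read 10.19, 10.41, 10.62, 10.23 and 10.79 against 8.56 to 9.44 (median 8.87) and was 2.88-fold lower (9.06e-06). Alox5, the lipoxygenase that starts leukotriene synthesis, read 8.39, 8.03, 8.45, 8.05 and 8.07 against 6.25 to 7.19 (median 6.89) and was 2.6-fold lower (3.39e-05). Tbc1d10c, carabin, an inhibitor of calcineurin and Ras, read 8.08, 8.18, 8.61, 7.93 and 8.08 against 6.34 to 7.23 (median 6.84) and was 2.55-fold lower (0.00155). No group overlapped in these either. In Ret, a receptor tyrosine kinase, and in the uncharacterised 2210407C18Rik the groups overlapped (-1.58 ± 0.34, 0.00351 and -1.40 ± 0.36, 0.0111), and Ret differed by -0.65 and -2.13 in the low and high array set.

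Some genes read under log2 4 on every array of 1 group and above it on every array of the other. The cut at 4 made this choice, and not all of these genes were near the lowest deposited value of 2.19. The gap between groups could be small. Cngb3 read up to 4.00 in banded mice and from 4.05 in sham mice, and Slc1a3 up to 3.92 in sham mice and from 4.04 in banded mice. Aqp4, the water channel of muscle and glial membranes, read 5.88, 5.44, 5.36, 5.34 and 5.25 in sham mice and 2.24 to 3.0 (median 2.26) in banded mice (-3.03 ± 0.12, adjusted p = 1.46e-11). Mrgprh, an orphan receptor, Cngb3, a channel subunit of photoreceptors, and the predicted gene Gm17546 were also above 4 in sham mice alone (-1.25 ± 0.16, -1.03 ± 0.22 and -0.88 ± 0.11). For Gm17546 all 7 banded mice read the same 3.87, and for Cngb3 banded mice 1, 2, 3, 6 and 7 read the same 3.60, which narrows the spread of their group. In the other direction, Lman1l, a lectin related to a cargo receptor of the secretory pathway, read 2.47, 2.33, 2.47, 2.30 and 2.27 in sham and 4.36 to 5.73 (median 5.18) in banded mice (2.73 ± 0.22, 6.72e-07). Tbx15 (1.95 ± 0.21), the growth factor Clec11a (1.40 ± 0.30), Tceal7 (1.33 ± 0.31) and the glutamate transporter Slc1a3 (1.05 ± 0.30) were above 4 in every banded and no sham mouse. Values under 4 lie in the range where the authors' background correction compresses signals, so no fold is given. For the same reason, the differences of this paragraph are those of the deposited values and not sizes of a change in RNA.

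Markers of cell types were summed on the linear scale to set beside these lists. The 17 cardiomyocyte markers summed to 696300 to 747800 in sham and 714800 to 741400 in banded mice, and 2 rose (Mybpc3 and Des). The 15 fibroblast markers summed to 49030 to 63620 and 53220 to 71590, and 6 rose and 1 fell (3 and 0 without banded mice 5 to 7, 2 rose without sham mouse 2). With the actin covariate 2 fibroblast markers rose, and in the high array set alone 1 rose. Their median difference was 0.57 in the low set alone and 0.01 in the high set alone. The 11 smooth muscle and pericyte markers summed to 48690 to 53600 against 55110 to 63880, ranges that do not overlap, but without Des, which heart muscle cells also express, the other 10 summed to 37890 to 40480 against 38230 to 46370, which overlap. In this list Notch3 (0.52 ± 0.12, 0.00609, and 0.0569 with the mean of its probe sets) and Pdgfrb (0.40 ± 0.12, 0.0314, and up to 0.085 without banded mouse 5, 6 or 7 or sham mouse 3 or 5) were higher, as was Des, and Abcc9 was lower (-0.30 ± 0.09, 0.0221, and 0.0659 without sham mouse 2), while Myh11, Acta2, Tagln, Cnn1, Rgs5, Kcnj8 and Mylk did not pass. The 14 endothelial markers summed to 39840 to 47990 against 41970 to 52650, with Robo4 (0.50 ± 0.11, 0.00392) and Tie1 higher. Of 21 macrophage and leukocyte markers limma called 0 (1 at an unadjusted p under 0.05), and they summed to 25010 to 59360 in sham and 29900 to 34880 in banded mice. Of 13 lymphocyte markers 1 passed the filter. Krt18, an epicardial marker, rose (1.29 ± 0.29, 0.00547) and Dbh, a sympathetic nerve marker, fell (-0.80 ± 0.24, 0.026, and up to 0.091 without banded mouse 1 or sham mouse 1, 2 or 5). For Dbh, sham mouse 4 and banded mice 2, 4, 5 and 6 all read the same 4.91. The part of cell mixture in the lists was not tested.

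Values of the banded mice with heart failure are set beside these, from a contrast that shares the 7 banded mice without heart failure and called 9.48% of all genes (3.83% higher and 5.65% lower in heart failure). For several genes that led the compensated response, the contrast between the banded groups did not pass: Acta1 differed by 0.06 (adjusted p = 0.733), Nppa by 0.26 (0.237), Ankrd1 by 0.15 (0.157), Slc7a5 by 0.14 (0.522), Cnksr1 by 0.19 (0.572) and Bdh1 by 0.24 (0.276). A miss of the threshold does not show that the levels were alike. Other genes stood further from sham in heart failure. Myh7 was higher by 0.70 (0.049), Frzb by 1.09 (0.00299), Tgfb2 by 1.03 (0.00708), Nmrk2 by 1.22 (0.00934), Itgbl1 by 1.13 (0.0051) and Uchl1 by 1.15 (0.00168). Among genes that had fallen, Ces1d differed by a further -1.44 (0.00343), Pla2g5 by -0.83 (0.000322), Gstt1 by -0.68 (0.00125), Psme1 by -0.50 (0.000903), Kcnj3 by -0.80 (0.00972) and Acaa2 by -0.34 (0.0169). The genes of this paragraph were picked from those named above after their values were seen. All 7 heart failure arrays lay in the low 18S set and banded mice 5 to 7 in the high set. The contrast has no term for this.

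The calls of the named genes were checked within the array sets and with single mice left out. The 128 named genes past the threshold had the same sign in both sets, which the choice of genes on these same 12 arrays largely fixed. In 30 of them the 2 differences lay over 0.5 apart, and those not given above follow, low set first. Larger in the high set were Cnksr1 (1.84 and 2.49), Fibin (1.28 and 1.90), Myh7 (2.54 and 3.12), Nppa (1.47 and 2.22), Slc7a5 (1.23 and 1.82), Tgfb2 (1.52 and 2.03) and, among the falls, Tbc1d10c (-1.08 and -1.60). Larger in the low set were Apod (1.44 and 0.85), Clec11a (1.82 and 1.02), Itgbl1 (2.06 and 1.38), Vgll3 (1.68 and 1.14) and, among the falls, 2210407C18Rik (-1.77 and -1.07). In 104 of them the call held whichever of the 12 mice was left out. The other 24 are those given above with the mice whose removal took their adjusted p past 0.05, to between 0.0531 and 0.147 at most. Without banded mice 5 to 7 the call was lost in 24 of the 128, with the actin difference as a covariate in 54, and in the low set alone, with 4 banded and 2 sham mice, in 73. None changed sign under these settings, whose arrays overlap those that chose the genes. Among those lost without banded mice 5 to 7 were Acadsb, Acsl5, Cdk2, Dusp18, Eif3m, Hsp90aa1, Manf and Slc25a34. Among those lost with the actin covariate were Aars, Ces1d, Enah, Fibin, Fstl3, Hk1, Kcnj3, Kcnv2, Manf, Myc, Pfkp, Ppm1k, Ret, Rgs2, Tbc1d10c, Uchl1 and Uqcr10.

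**Figure D5:**
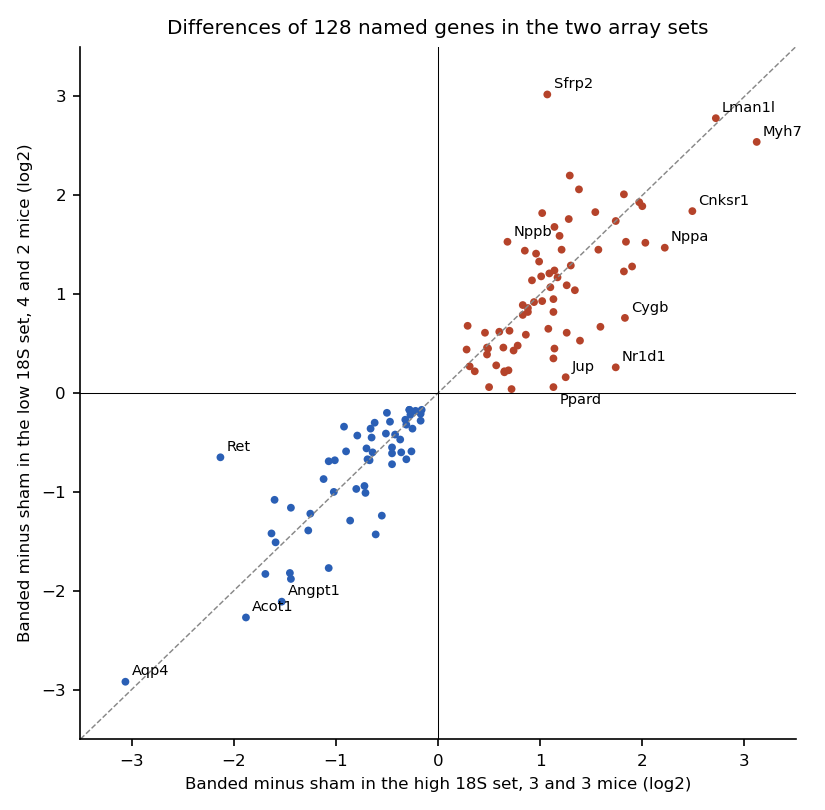
Difference between banded and sham mice (log2) in the low 18S set (y axis, 4 banded and 2 sham mice) against the high 18S set (x axis, 3 and 3), with 1 point per gene for 128 named genes, red for higher and blue for lower, and the dashed line where both are equal. The genes were called on these same arrays, so their equal signs are a description, and Sfrp2, Nppb, Ret, Cygb, Nr1d1, Jup and Ppard lie farthest from the line among those labelled.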

How the data were processed

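RNA of 19 left ventricles was measured on Affymetrix arrays, 1 mouse per array. The authors deposited log2 expression values from GCRMA, per the submitters' processing notes (version not given in the sources used here). The method adjusts background by probe sequence, normalises across arrays and summarises probe sets, which compresses dim signals. The values ran from 2.19 to 16.77, and 50.5% were under 3. Arrays have no read depth, and their number limits the precision.

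Gene symbols came from the platform annotation at GEO. Of 45101, 34958 had 1 symbol, 932 several and 9211 were unlisted. A gene was represented by its single-symbol probe set of highest mean over all arrays (4837 genes had several), if log2 was above 4 in at least 5 arrays, which gave 10733 genes.

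Groups were compared with limma 3.58.1 (lmFit and eBayes, R 4.3.3) over all 19 arrays, group as the only term, and Benjamini-Hochberg adjustment at 0.05. Differences are of log2 means, ± is the SE of the fit, and a fold is 2 to that difference. On simulated data with 100 genes each changed by 0.5 and 1 (log2) among the 10733, 68% and 96% were recovered, and 8 of 172 calls were false. Weights were compared by exact permutation over mice (scipy 1.17.1).

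The members and the gene lists were chosen with earlier results of these data known, and lists are described by counts and medians without a set test. Genes were named by rule: outside the matrix list, the 12 largest rises and 12 largest falls among calls above log2 4 on all 12 arrays; up to 5 each way that were under 4 in one group and above it in the other; the 3 largest per list; members against the rest of their list where 3 or fewer; members of marker lists where 5 or fewer passed; and Nppa, Nppb, Myh7, Myh6, Acta1, Atp2a2 and Ankrd1. Promoters came from RefSeq (GRCm38.p6). Alternatives covered the arrays in the fit, the filter, probe sets, scaling, the variance prior, animal ID series and 18S set as blocks, each set alone, an actin covariate and each mouse left out. Settings without banded mice 5 to 7, on the 6 low-set arrays alone and with atrial markers as a covariate were added after seeing the data.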

Additional observations from a re-analysis of the deposited data

Results flagged for a closer look

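In 240 groups of values (named genes in the sham and in the banded mice), 16 held 1 mouse whose gap to the rest exceeded Dixon's critical value. Chance alone gives about 1 in 20, or 12, so the number is close to that, and 4 of the 16 fell on sham mouse 4 and 3 on banded mouse 2.

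Sham mouse 4 was low for Nppb at 11.74 (others 13.51 to 13.66), for Manf at 10.20 (11.22 to 11.49) and for Hsp90aa1 at 11.42 (12.05 to 12.17). It was high for Cx3cl1 at 7.15 (6.66 to 6.74). Sham mouse 5 was high for Ankrd23 at 12.76 (12.10 to 12.25) and low for Lgals4 at 7.44 (8.15 to 8.26), in each case toward the banded mice. Sham mouse 3 was also nearer to the banded mice, with Sfrp2 at 7.59 (4.14 to 5.11) and Kcnv2 at 4.34 (5.33 to 5.73).

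Banded mouse 2, which had the smallest ventricle of its group, was low for Fstl3 at 7.00 (7.58 to 8.0), Myc at 5.46 (6.21 to 6.55) and the clock gene Nr1d1 at 6.97 (8.93 to 9.83). Banded mouse 1, which had the largest ventricle, was high for Bak1 at 8.66 (7.87 to 8.17) and low for Dbh at 4.33 (4.87 to 4.93). Banded mouse 3 was high for Cacnb1 at 6.56 (5.65 to 5.95) and low for Vgll3 at 7.45 (8.34 to 8.81). Banded mouse 5 was high for Kcnv2 at 4.71 (4.23 to 4.39). In Cacnb1, Kcnv2 and Dbh several banded mice read the same value, so the gap of the outlier was set against a narrow spread.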

How the results depend on the processing

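The count of 1865 genes past the threshold stayed within 1.5 times under 11 other settings: 1548 with the 12 arrays alone, 1495 without the filter, 1823 with a filter at log2 6, 1869 with mean probe sets, 1828 after quantile normalisation, 1942 with equal medians, 1933 with a trended robust prior, 1818 in the high 18S set, 1554 without banded mice 5 to 7, and 2264 and 2351 with animal ID series or 18S set as a block. It was 1618 with atrial markers as a covariate. The low 18S set alone (2 sham mice) gave 343 genes, 210 higher and 133 lower, and 89 past 2-fold. Its 6 arrays of these groups, fitted alone, gave 54, 34, 20 and 27. The actin covariate, whose values do not overlap between the groups, gave 1199 genes and 355 lower. Equal array medians gave 1064 lower genes. The high set alone, with 3 mice of each group, gave 1818. Of the 1865 calls, 1130 were shared with the high set alone, 281 with the low set alone and 734 with the actin covariate. The cause of these shifts, that of the low set among them, was not tested. Leaving out single mice gave 1185 (without sham mouse 2) to 2200 (without sham mouse 4) genes, 731 to 1286 higher, 454 to 914 lower and 134 to 207 past 2-fold. Of the 128 named calls, 73 were lost in the low set, 110 in its 6 arrays, 54 with the actin covariate, 24 in the high set, 24 without banded mice 5 to 7, and 0 to 15 under the other settings of the fit, with 0 changes of sign. The difference in ventricular index was 1.74 to 1.93 with single mice left out, and 1.78 within the animal ID series that holds 3 mice of each group (exact permutation p = 0.1, the smallest possible there). No paired analysis was possible because the labels give each mouse its own ID and no replicate number shared between groups. Few arrays limit what could be detected, and signals near the array's floor are compressed.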
